A study of Mus musculus with 6 samples.

Results

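Cytochrome P450 enzymes (Cyp), flavin-containing monooxygenases (Fmo), UDP-glucuronosyltransferases (Ugt) and cytosolic sulfotransferases (Sult) were followed in epididymal white fat of obese mice with and without CD44, the cell surface receptor for hyaluronan. The genes were taken by symbol: every gene whose name begins with Cyp, Fmo, Ugt or Sult and a digit, leaving out Cyp51, which belongs to cholesterol synthesis. There were 150 such genes among the 22322 in the table. Of these, 59 reached 0.5 FPKM (a read level scaled for transcript length and library size) in at least 1 library and are described: 41 of 100 Cyp, 5 of 7 Fmo, 6 of 22 Ugt and 7 of 21 Sult genes. RNA came from 3 wild type and 3 CD44-KO mouse libraries, all from animals given a high fat diet for 17 weeks. The labels do not give the nature of the KO allele, the strain, the age or a group on another diet, and they do not say that each library is a separate animal. The p-values below therefore measure the spread between these libraries.

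Cytochrome P450 enzymes are haem proteins that insert oxygen into fatty acids, sterols, retinoids and foreign chemicals, and the microsomal ones take their electrons from the reductase Por. Flavin-containing monooxygenases oxidise nitrogen and sulphur atoms of many small molecules. The glucuronosyltransferases and sulfotransferases then couple a sugar acid or a sulphate group to such products, or to hormones, which makes them water-soluble and, for oestrogens and other steroids, inactive at their receptors. Liver holds the richest set of these enzymes, while white fat uses a smaller set on steroid hormones, retinoic acid, fatty acids and lipophilic chemicals stored in the fat droplet.

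Total expected counts were 15543317 to 18765009 per library, and 15780 to 16927 genes had a count. Cd44 itself stood at 44.1, 144 and 78.8 FPKM in the wild type libraries and at 0.36, 0.59 and 0.43 in the KO libraries, so the labels and the targeted gene go together (edgeR adjusted p = 0.0126). All 15 mature adipocyte markers had counts in every library. The 3 KO libraries were unlike in other respects. Markers of the epididymis, the organ next to this fat pad, summed to 15507 CPM (counts scaled to library size) in KO replicate 2, against 8.29 to 16.3 in the other KO libraries and 1.19 to 2.45 in wild type. In that library 16 of the 22 markers had a count, and Lcn9, Lcn10, Defb12, Adam28, Gpx5 and Cst11 were at 0. Albumin (Alb), a liver product, was at 190 FPKM in KO replicate 3 and 30.4 in KO replicate 2, against 2.66 in KO replicate 1 and 0.13 to 0.80 in wild type. Macrophage markers summed to 5609 to 12425 CPM in wild type, 5715 in KO replicate 1, and only 347 and 1115 in KO replicates 2 and 3. Mesothelial markers summed to 7.51 to 19.2 CPM in wild type and 58.4 to 493 in KO. The sums of endothelial (855 to 1959), neutrophil (12.5 to 83.8), T, NK and B cell (9.49 to 20) and muscle markers (160 to 498) overlapped between genotypes. The highest mesothelial and neutrophil sums were both in KO replicate 2 and rested on few genes. There the keratins Krt8 and Krt18 had 3262 and 3675 counts, against 99 to 256 and 107 to 216 in the other KO libraries. Ltf, of the neutrophil list, had 1356 counts there and 5 to 21 in each other library.

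Of the 59 genes, 39 passed the count filter for the test of CD44 KO against wild type and 20 did not. The filter asks for counts in several libraries, so Cyp4a12a, with 635 of 637 counts in KO replicate 2, was not tested. A gene could enter the test through the genotype in which it was high, so the counts that follow describe the tested genes and not all members. At an adjusted p under 0.05, edgeR called 2 genes higher in CD44 KO, Sult1e1 and Fmo5, and 1 gene lower, Cyp4v3. Over all 13829 genes tested the same threshold called 1.74% higher and 0.882% lower. At an unadjusted p under 0.05 there were 12 members higher and 7 lower, where all genes gave 16.3% and 14.7%. In CPM, libraries of the genotypes did not overlap in 11 members with KO above and in 8 with KO below, where all genes gave 19.7% and 18.1%. The median log2 fold change of the 39 was 0.29, beside 0.03 over all genes tested. There were 24 positive and 15 negative values, where 52.2% of all genes tested were positive. All 4 Fmo and all 4 Sult genes tested had positive values (medians 1.48 and 1.85), 3 of 4 Ugt genes had negative values (median -0.88), and the 27 Cyp genes were mixed with 15 positive and 12 negative (median 0.18). With 4 genes tested in each of the Fmo, Sult and Ugt families, these signs do not establish a direction for a family. Ugt1a6a, Ugt1a6b and Ugt1a7c moreover share 1 locus.

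**Figure D1:**
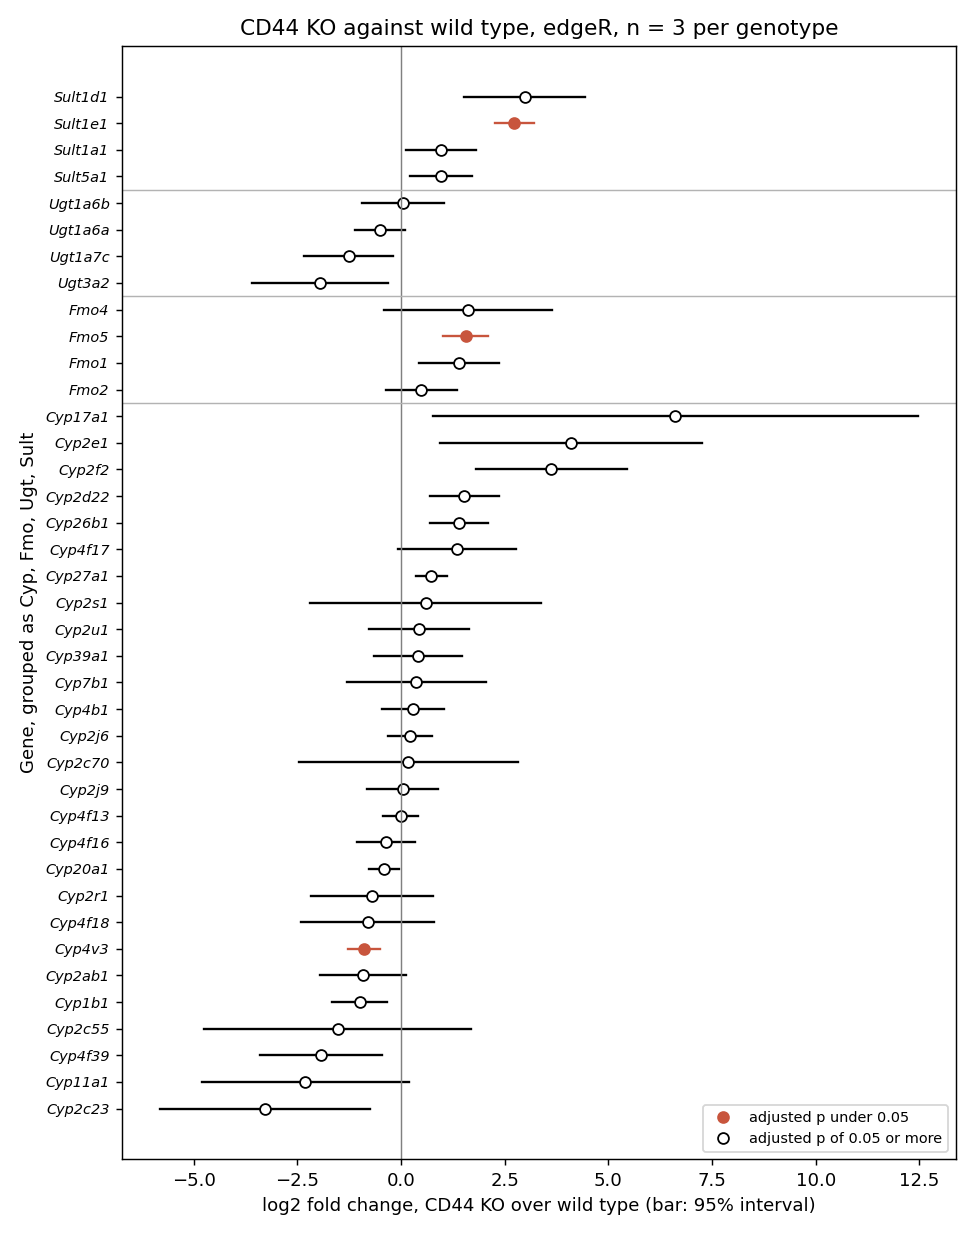
Log2 fold change of the 39 tested genes, CD44 KO over wild type, on the horizontal axis with the 95% interval as a bar, grouped by family on the vertical axis. Sult1e1 (2.73) and Fmo5 (1.56) to the right and Cyp4v3 (-0.89) to the left are the 3 filled points, and the widest bars belong to Cyp17a1, Cyp2e1 and other genes whose libraries differ within a genotype.

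The sulfotransferase Sult1e1, which inactivates oestrogens by sulphation, had the lowest p of all the members. Its level was 5.26, 7.0 and 6.87 FPKM in wild type replicates 1 to 3 and 49.3, 38.1 and 35.8 FPKM in the KO replicates. The lowest KO library was above the highest wild type library by a wide margin, and the libraries within each genotype lay close together. Sult1e1 rose 6.64-fold (95% interval 4.79 to 9.21; log2 fold change 2.73 ± 0.20 SE; edgeR adjusted p = 0.00857, n = 3 per genotype). The call held without any 1 of the KO libraries or wild type replicate 1, and was lost without wild type replicate 2 (adjusted p = 0.0553) or replicate 3 (0.123), with log2 fold changes of 2.60 to 2.82 in all 6 of these fits. Over all genes tested, edgeR called 2 higher without wild type replicate 2 and 0 without replicate 3.

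The gene lies at chr5:87575969-87591594 on the minus strand in GRCm38. The 250 bases before its start are printed because they belong to the member with the clearest change, with the single nuclear receptor half-site (AGGTCA, read on either strand) in capitals, here in its reverse form 113 bases before the start (RefSeq, GRCm38.p6, chr5:87591612-87591861, minus strand):
Sult1e1: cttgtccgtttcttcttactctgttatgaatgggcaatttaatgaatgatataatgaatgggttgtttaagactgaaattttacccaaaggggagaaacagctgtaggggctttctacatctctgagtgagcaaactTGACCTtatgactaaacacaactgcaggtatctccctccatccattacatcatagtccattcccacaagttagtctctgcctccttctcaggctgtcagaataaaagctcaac
The half-site letters occur in 14.0% of the 32851 mouse promoters of this length and in 8 of the 46 member promoters found in the table (17.4%). No GCGTG (the core of the AHR-ARNT site) or CACGTG (an E-box) was found in the window. Such a match describes letters only.

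Its neighbour Sult1d1, a sulfotransferase of catecholamines and other phenols that lies 6941 bases away, was far lower in level but differed the same way. Sult1d1 stood at 0.07, 0.13 and 0.11 FPKM in wild type and at 0.77, 1.25 and 0.45 in KO. The genotypes did not overlap, and the log2 difference of 2.98 ± 0.60 SE just missed the threshold (edgeR adjusted p = 0.0554). DESeq2 called it (2.99, adjusted p = 0.00241), and edgeR did so without KO replicate 1 (3.06, adjusted p = 0.0408). The transcripts of Sult1e1 and Sult1d1 share no stretch of 31 bases with another gene, so reads of that length cannot be exchanged between them.

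Sult1a1, the main phenol sulfotransferase, was the most abundant member after Cyp2e1. It was at 121, 53.5 and 83.8 FPKM in wild type and 118, 188 and 174 in KO. Wild type replicate 1 was above KO replicate 1, so the genotypes overlapped, and the log2 fold change of 0.97 ± 0.36 SE was not called (edgeR adjusted p = 0.131). Sult5a1 was low, at 2.21, 1.64 and 1.83 FPKM in wild type and 2.39, 4.09 and 2.95 in KO. Every KO library was above every wild type one for Sult5a1, narrowly for KO replicate 1 (log2 fold change 0.96, adjusted p = 0.108). Summed over the 21 Sult genes, the level was 95.3 ± 33.4 FPKM in wild type and 215 ± 42.6 in KO (SD, n = 3), most of it Sult1a1.

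Fmo5, a monooxygenase that also carries out Baeyer-Villiger oxidation of ketones, was the other gene called higher. It was at 9.17, 6.52 and 7.57 FPKM in wild type and 17.8, 24.6 and 25.3 in KO, with no overlap. Fmo5 rose 2.96-fold (95% interval 2.02 to 4.32; log2 fold change 1.56 ± 0.23 SE; edgeR adjusted p = 0.0337). With each library left out in turn the value stayed between 1.44 and 1.73, and the call held without wild type replicate 1 (adjusted p = 0.0438) or KO replicate 1 (0.0203). It was lost without KO replicate 2 (0.0661), KO replicate 3 (0.114), wild type replicate 2 (0.139) or wild type replicate 3 (0.233).

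Fmo1, the form with broad substrate use that dominates in fat here, was higher in level than Fmo5. Its values were 53.8, 19.9 and 30.5 FPKM in wild type and 71.4, 86.1 and 115 in KO. The genotypes did not overlap, but wild type replicate 1 stood well above the other wild type libraries (log2 fold change 1.40 ± 0.40 SE, edgeR adjusted p = 0.0915). Fmo2, known from lung, was at 16.8, 10 and 13.6 FPKM in wild type and 14.7, 25.9 and 12.8 in KO, with overlap (0.49, adjusted p = 0.368). Fmo4 did not exceed 0.68 FPKM in any library (log2 fold change 1.61 ± 0.84 SE, adjusted p = 0.234). The sum of the Fmo genes was 56.3 ± 21.9 FPKM in wild type and 132 ± 25.5 in KO.

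**Figure D2:**
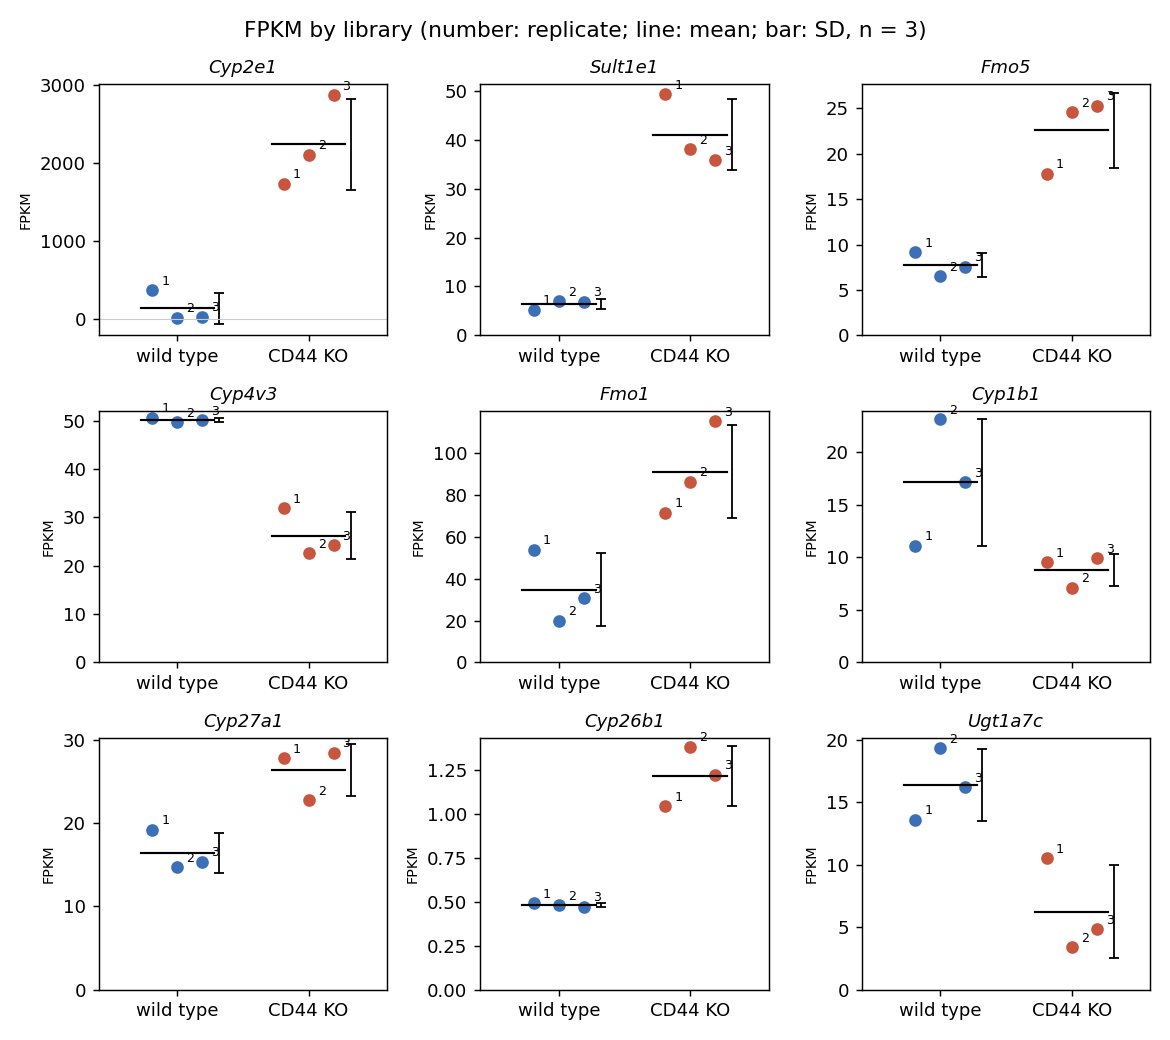
FPKM of 9 genes in each library, with wild type in blue and CD44 KO in red, the replicate number beside each point, a line for the mean and a bar for the SD (n = 3). Sult1e1, Fmo5 and Cyp4v3 separate with small spread, while Cyp2e1 and Fmo1 have a wild type replicate 1 far above the other wild type libraries.

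Of the 4 glucuronosyltransferase genes tested, 3 had negative log2 fold changes, and none was called. Ugt1a7c, Ugt1a6a and Ugt1a6b belong to 1 locus and are not separate observations. Ugt1a7c was at 13.6, 19.3 and 16.2 FPKM in wild type and 10.5, 3.40 and 4.85 in KO, with no overlap in FPKM. In CPM KO replicate 1 lay within the wild type range, and the log2 fold change was -1.26 ± 0.44 SE (edgeR adjusted p = 0.123). Leaving out KO replicate 1 moved it to -1.83 and under the threshold (adjusted p = 0.0261). Ugt1a6a was at 32.1, 20 and 18.7 FPKM in wild type and 15.7, 13.3 and 19.2 in KO, with overlap (-0.51, adjusted p = 0.209). Ugt1a6b was at 25.2, 8.40 and 11.8 against 16.8, 11.4 and 17.3 (0.05, adjusted p = 0.947).

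The Ugt1a genes are alternative first exons joined to the same downstream exons, and their counts depend on how shared reads were divided. Of the 31-base stretches in their transcripts, 55.7% in Ugt1a7c, 53.0% in Ugt1a6a and 84.2% in Ugt1a6b also occur in another gene, so the division between them is uncertain. The 9 Ugt1a rows were therefore summed into 1 feature, a choice made after the data were seen. Counts of this sum were 2715, 2263 and 2201 for the wild type libraries, against 1760, 1207 and 1545 for KO, every KO library below every wild type one. Its log2 fold change was -0.52 ± 0.21 SE (95% interval -1.03 to -0.01; edgeR unadjusted p = 0.0475, adjusted p = 0.157). Ugt3a2 was at 3.58, 1.02 and 0.85 FPKM in wild type and 0.46, 0.27 and 0.64 in KO, with no overlap and a single high wild type library (-1.95 ± 0.68 SE, adjusted p = 0.122). Ugt8a, which makes the galactosylceramide of myelin, had 42 of its 55 counts in wild type replicate 3.

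Cyp2e1, the P450 that oxidises ethanol, acetone and fatty acids, dominated the members' RNA in KO. Its level was 368, 14.6 and 26.6 FPKM in wild type and 1736, 2109 and 2874 in KO. All KO libraries were above all wild type libraries, but wild type replicate 1 was far above the other wild type libraries. Cyp2e1 made up 42.2%, 4.08% and 6.24% of the summed FPKM of the 150 genes in wild type and 77.4%, 75.2% and 81.6% in KO. By FPKM it ranked 205th, 4696th and 3000th among all genes in the wild type libraries and 29th, 23rd and 16th in the KO libraries. The fold was 17.1 with a 95% interval of 1.91 to 152 (log2 fold change 4.09 ± 1.31 SE), and it was not called (edgeR unadjusted p = 0.0190, adjusted p = 0.107). Without wild type replicate 1 the log2 fold change was 6.84 and passed (adjusted p = 0.0316), and leaving out any other single library gave 3.54 to 4.26 without a call. DESeq2 called it with all 6 libraries (adjusted p = 0.00846). With Cyp2e1 left out, the other 99 Cyp genes summed to 206 ± 12.2 FPKM in wild type and 232 ± 42.3 in KO.

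The gene lies at chr7:140763739-140774987 on the plus strand. The stretch between RefSeq's promoter start and that gene body is printed because this is the member of highest level, with a CCAAT box (CCAAT, here in its reverse form, 210 bases before RefSeq's start) in capitals (RefSeq, GRCm38.p6, chr7:140763569-140763738, plus strand):
Cyp2e1: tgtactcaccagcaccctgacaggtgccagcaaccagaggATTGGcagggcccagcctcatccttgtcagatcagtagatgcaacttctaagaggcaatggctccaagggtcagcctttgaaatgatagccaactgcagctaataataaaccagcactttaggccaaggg
Another CCAAT box (68 bases before the start, reverse form) and a TATA box (TATAAA, 31 bases before the start) fall in the bases that follow. A CCAAT box was found in 33.8% of all promoters and 18 of 46 member promoters (39.1%), and a TATA box in 12.4% and in 11 of 46 (23.9%).

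Adipocyte RNA was not equal between the libraries. The adipocyte marker sum was 41504, 19756 and 27271 CPM in wild type and 48894, 43274 and 63214 in KO, and wild type replicate 1, high for Cyp2e1, Fmo1 and Sult1a1, was also the wild type library with the highest sum. In bulk tissue, fewer cells of a type and less RNA per cell cannot be told apart. Levels were set against Adipoq, the adipocyte hormone adiponectin, in the same library, a scale chosen after the data were seen. Per 100 FPKM of Adipoq, Cyp2e1 was 18.4, 2.62 and 2.74 in wild type and 77.1, 119 and 107 in KO. Sult1e1 was 0.263, 1.26 and 0.708 in wild type and 2.19, 2.15 and 1.33 in KO on this scale. Both genes still had every KO library above every wild type library. Fmo5 on this scale was 0.458, 1.17 and 0.780 in wild type and 0.791, 1.39 and 0.941 in KO, and its genotypes overlapped, as did those of Fmo1, Sult1a1, Cyp2d22, Cyp27a1 and Cyp4b1. The adipocyte markers themselves were not alike: the log2 fold change was 1.01 for Adipoq, 4.76 for Cfd and -1.75 for Lep. With each of the 15 markers as the scale in turn, all KO libraries were above all wild type libraries for Cyp2e1 with 13 and for Sult1e1 with 9, and for Sult1e1 all were below with 1. For Fmo5 they were above with 5 and below with 2, and for Cyp27a1 above with 2 and below with 8. The part of adipocyte content in these differences was not tested.

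Among the P450s of fatty acids, Cyp4v3, a hydroxylase of medium-chain and polyunsaturated fatty acids, was the gene called lower. It was at 50.6, 49.7 and 50.1 FPKM in wild type and 31.9, 22.6 and 24.3 in KO. The wild type libraries were almost equal and all KO libraries lay below them. Cyp4v3 fell by 0.89 on the log2 scale (SE 0.16, 95% interval of the log2 fold change -1.28 to -0.50; edgeR adjusted p = 0.0481). This call rests on all libraries but KO replicate 1: without that library the value was -1.03 (adjusted p = 0.0246), and without any 1 of the others it was -0.90 to -0.82 with adjusted p between 0.0710 and 0.249. It was also lost under both other count filters and upper-quartile scaling.

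The gene lies at chr8:45304944-45333216 on the minus strand. The bases before its gene body are printed because it is the only member called lower, with an E-box (CACGTG, the same on both strands, 171 bases before RefSeq's start) in capitals (RefSeq, GRCm38.p6, chr8:45333217-45333413, minus strand):
Cyp4v3: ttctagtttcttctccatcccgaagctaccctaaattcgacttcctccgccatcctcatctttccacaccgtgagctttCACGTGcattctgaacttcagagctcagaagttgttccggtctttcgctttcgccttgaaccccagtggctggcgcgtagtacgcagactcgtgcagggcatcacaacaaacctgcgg
The E-box letters occur in 6.02% of all promoters and in 2 of 46 member promoters, Cyp4v3 and Cyp2j6 (4.35%). A GCGTG was found 16 bases before the start, beyond the printed stretch, and these letters occur in 28.2% of all promoters and 11 of 46 members (23.9%). The letters TGACNNNGC of the NRF2 element, which occur in 10.2% of all promoters, were found in 1 member, Cyp4f18 (2.17%).

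Of the 6 other Cyp4 genes tested, 4 had negative and 2 positive log2 fold changes, and none was called by edgeR. Cyp4b1, a hydroxylase of short and medium-chain fatty acids and one of the most abundant members, was at 49.1, 30.8 and 41.1 FPKM in wild type and 30.8, 60.0 and 51.6 in KO, with overlap (log2 fold change 0.29, edgeR adjusted p = 0.537). Cyp4f18, which inactivates leukotriene B4 in neutrophils and other myeloid cells, was at 6.65, 5.49 and 6.51 in wild type and 6.49, 0.73 and 3.36 in KO (-0.80, adjusted p = 0.430). The low Cyp4f18 values were in KO replicates 2 and 3, the libraries with the lowest macrophage marker sums, and the part of those cells was not tested. Cyp4f39, an omega-hydroxylase of very long fatty acids in skin, was at 0.80, 2.91 and 1.77 against 1.17, 0.21 and 0.85 (-1.94 ± 0.61 SE, adjusted p = 0.105), with overlap in FPKM but not in CPM. Cyp4f13 was nearly level at 10.3 to 13.4 FPKM in all libraries (-0.01, 95% interval -0.44 to 0.42), Cyp4f16 ranged from 3.24 to 8.05 (-0.37, adjusted p = 0.408) and Cyp4f17 from 1.98 to 17.2 (1.35, adjusted p = 0.174). The 20 Cyp4 genes summed to 123 ± 10 FPKM in wild type and 112 ± 15.3 in KO.

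Of the sterol and retinoid P450s, Cyp27a1 and Cyp26b1 just missed the threshold, and Cyp7b1 and Cyp39a1 were far from it. Cyp27a1, the mitochondrial sterol 27-hydroxylase, was at 19.2, 14.7 and 15.4 FPKM in wild type and 27.8, 22.8 and 28.5 in KO, with no overlap (log2 fold change 0.73 ± 0.16 SE, edgeR adjusted p = 0.0609). Cyp26b1, which clears retinoic acid, was at 0.49, 0.48 and 0.47 in wild type and 1.04, 1.38 and 1.22 in KO, with no overlap at a low level (1.39 ± 0.29 SE, adjusted p = 0.0560). Leaving out KO replicate 1 put Cyp26b1 under the threshold (1.51, adjusted p = 0.0340). Cyp7b1, an oxysterol hydroxylase, was at 0.55, 0.67 and 1.01 against 0.47, 1.84 and 0.42 (0.37, adjusted p = 0.739), and only KO replicate 2 was high. Cyp39a1, another oxysterol hydroxylase, was likewise high only in KO replicate 2, at 3.05 FPKM against 1.02 to 1.32 elsewhere (0.41, adjusted p = 0.550). Without that library their log2 values were -0.73 and -0.20.

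Steroid hormone P450s were scarce. Cyp19a1, the aromatase that makes oestrogens, did not reach 0.5 FPKM in any library. Cyp11a1, which starts steroid synthesis by cutting the cholesterol side chain, was at 0.40, 0.52 and 0.28 in wild type and 0.20, 0.03 and 0 in KO, with no overlap. The log2 difference was -2.31 ± 1.04 SE and edgeR's adjusted p was 0.184. Leaving out KO replicate 1 gave -4.45, under the threshold (adjusted p = 0.0489). Cyp17a1, the steroid 17-alpha-hydroxylase, was at 0.43, 0.03 and 0.03 in wild type and 0.30, 41.9 and 0.35 in KO. A single library thus held nearly all of it: the log2 fold change was 6.62 ± 2.42 SE (adjusted p = 0.131) and 1.03 (0.619) without KO replicate 2.

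Cyp1b1, an enzyme of oestradiol and polycyclic hydrocarbon oxidation that is induced through the aryl hydrocarbon receptor, was lower in level in KO. Its values were 11.1, 23.1 and 17.1 FPKM in wild type and 9.5, 7.09 and 9.89 in KO, with no overlap but a narrow gap to wild type replicate 1. The log2 fold change of -1.0 ± 0.28 SE was not called (edgeR adjusted p = 0.0882). Cyp1b1 is also a gene of stromal cells, and the fibroblast and progenitor markers summed to 5033 to 6912 CPM in wild type and 1017 to 2839 in KO, whose part was not tested. Cyp20a1, an enzyme of unknown substrate, was at 13.4, 16.3 and 15.1 against 11.4, 9.44 and 11.9 (-0.41 ± 0.15 SE, adjusted p = 0.125), again with no overlap.

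The Cyp2 family outside Cyp2e1 summed to 31 ± 7.33 FPKM in wild type and 53.8 ± 11.3 in KO. Cyp2d22 was the largest part of the higher values, at 8.76, 5.68 and 7.16 in wild type and 11.6, 23.1 and 24.8 in KO. No libraries overlapped, with KO replicate 1 nearest to wild type (log2 fold change 1.52 ± 0.35 SE, edgeR adjusted p = 0.0660), and without that library Cyp2d22 passed (1.81, adjusted p = 0.0203). Cyp2f2, known for naphthalene oxidation in the airway, was at 0.48, 0.29 and 0.26 in wild type and 2.28, 1.6 and 8.59 in KO. All KO libraries were above wild type, KO replicate 3 by far the most (3.62 ± 0.76 SE, adjusted p = 0.0577). The value was 2.54 (0.123) without KO replicate 3 and 3.92 (0.0284) without KO replicate 1. KO replicate 3, the library with the most albumin, held 249 of the 407 Cyp2f2 counts, and the part of liver RNA in them was not tested.

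Cyp2c23, an epoxygenase of arachidonic acid, differed in the opposite direction, at 2.78, 1.01 and 1.17 FPKM in wild type and 0.04, 0.04 and 0.44 in KO. Its genotypes did not overlap (log2 fold change -3.28 ± 1.05 SE, edgeR adjusted p = 0.107). Cyp2s1, an epithelial P450, was at 1.21, 3.13 and 3.19 in wild type and 10.5, 0.80 and 0.40 in KO. The KO libraries lay on both sides of wild type: its log2 fold change was 0.60 with all libraries and -1.99 without KO replicate 1 (adjusted p = 0.743 and 0.0735). Cyp2u1, a fatty acid hydroxylase, ranged from 0.65 to 1.68 FPKM over all libraries (0.44, adjusted p = 0.576). The epoxygenases Cyp2j6 (6.02 to 9.69 FPKM) and Cyp2j9 (3.55 to 8.59) and the vitamin D 25-hydroxylase Cyp2r1 (0.40 to 2.67) overlapped between genotypes. So did Cyp2c55 and Cyp2c70, neither above 1.54 FPKM, although Cyp2c55 was at 0 in KO replicates 2 and 3 and was called without KO replicate 1 (-6.63, adjusted p = 0.0475; -1.53 and 0.456 with all libraries). The last of the tested Cyp2 genes, Cyp2ab1, was at 0.59 to 1.07 in wild type and 0.33 to 0.37 in KO (-0.91, adjusted p = 0.199).

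**Figure D3:**
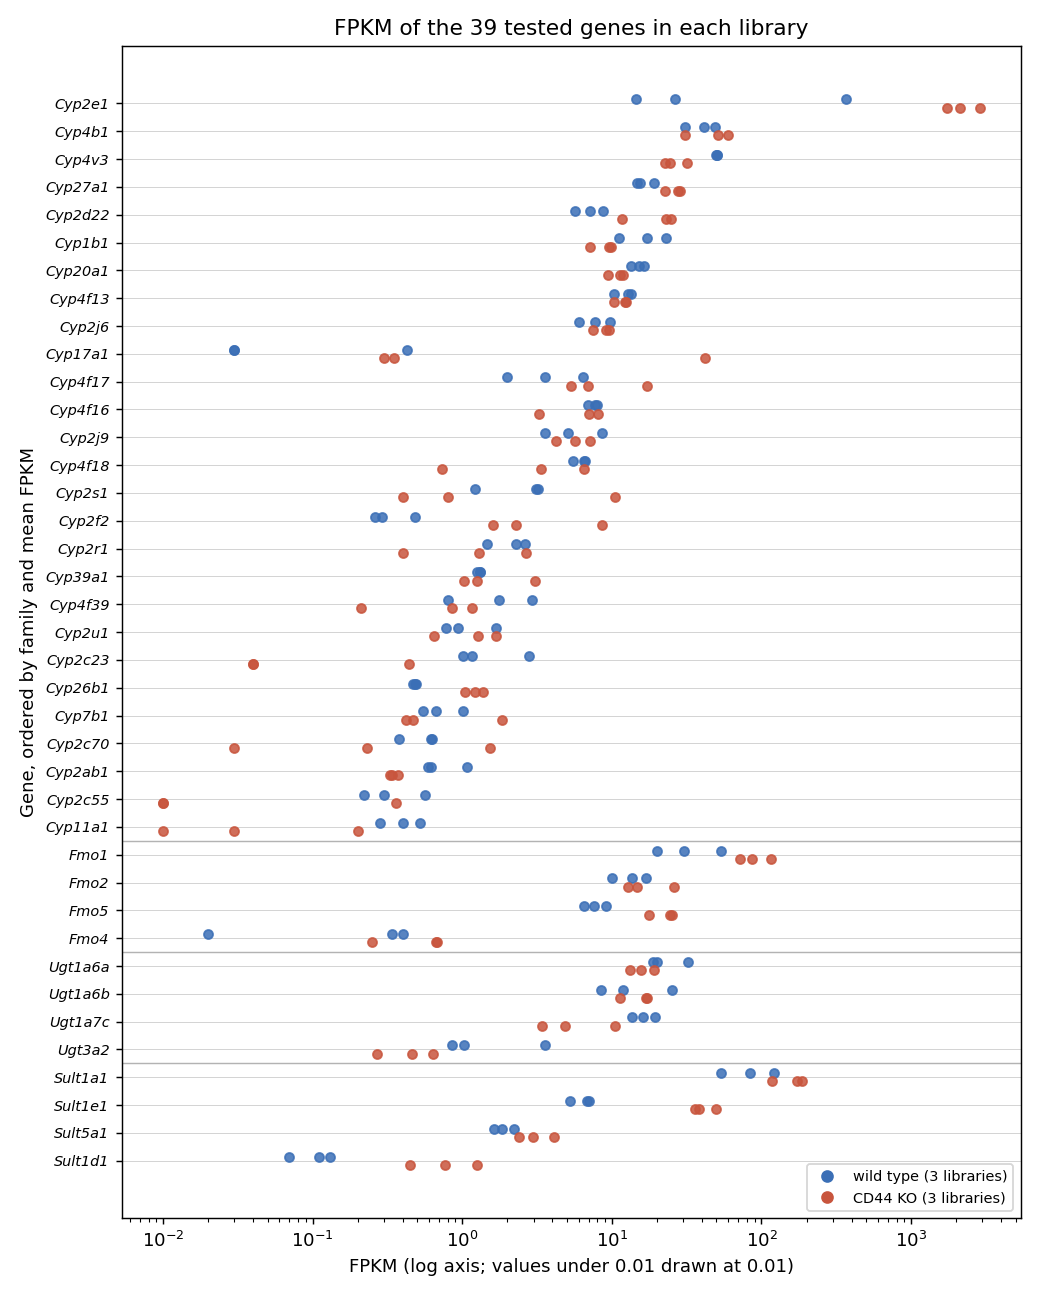
FPKM of the 39 tested genes in each library on a log axis, wild type in blue and CD44 KO in red, ordered by family and mean level. Levels span from under 0.1 to 2874 FPKM (Cyp2e1 in KO replicate 3).

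A group of members was seen almost entirely in 1 library. Taking members with at least 80% of their summed CPM in a single library, a limit chosen after the values were seen, there were 10 in KO replicate 2 and 3 in KO replicate 3. The share of all genes that are as concentrated was not taken, and a level of 0.5 FPKM in any library admits such genes. The counts are therefore no trait of these families. Those of KO replicate 2 included Cyp17a1 (1398 of 1432 counts), Cyp4a12a (635 of 637), Cyp2j13 (523 of 536), Sult1c2 (373 of 419), Sult2b1 (304 of 323), Cyp26a1 (56 of 58), Cyp2j11 (54 of 54), Cyp4f40 (22 of 23) and Cyp4a30b (18 of 18). In FPKM, Cyp4a12a reached 14.7, Sult2b1, a sulfotransferase of cholesterol and other hydroxysteroids, 14.3, Sult1c2 11.4 and Cyp2j13 9.85 in that library. This is the library with the epididymis markers, whose Crisp1 was at 6360 FPKM against 0.46 to 1.19 elsewhere. The part of epididymal RNA in these 10 genes was not tested. Cyp4a12a shares 62.2% of its 31-base stretches with another gene, so its counts may be divided with a close copy.

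The 3 members concentrated in KO replicate 3 were Cyp2a12 (32 of 34 counts), Cyp2d9 (30 of 37) and Cyp2d10 (18 of 20), P450s known from liver. Cyp2c29, Cyp2d26, Cyp3a11 and Cyp3a25, also known from liver, were highest there too, at 0.69 to 1.02 FPKM. KO replicate 3 is the library with the most albumin, and all 15 liver markers had counts in it and in KO replicate 2, where 5 to 7 were at 0 in each wild type library and 5 in KO replicate 1, with Apob, Ttr and Fgb at 0 in all 4. The liver marker sum was 1407 to 2431 CPM in wild type and 2596, 2517 and 4705 in KO, nearly all of it Trf (transferrin), which was high in every library. Without Trf the sum was 7.22 to 30.3 CPM in wild type and 9.91, 122 and 724 in KO replicates 1 to 3. The part of liver RNA in these genes was not tested. Cyp2d10, Cyp2a12 and Cyp2d9 share 34.5% to 50.2% of their 31-base stretches with near copies.

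Of the 59 described genes, 10 had no count in any wild type library, and each of the 59 had a count in at least 1 KO library. These 10 could reach 0.5 FPKM, and so be described, only through a KO library. Their number and folds therefore describe these genes alone, and the share of all genes without a wild type count was not taken. The 3 wild type libraries together were taken as 3 counts, the floor used here, and the mean KO level as counted. On this reckoning Cyp3a11 was at least 24.0-fold higher, Cyp26a1 at least 21.2-fold, Cyp2j11 at least 19.7-fold, Cyp2d9 at least 14.3-fold, Cyp2a12 at least 13.3-fold and Cyp2c29 at least 10.8-fold. Cyp4f40 was at least 8.39-fold higher, Cyp2d10 at least 7.81-fold, Cyp4a30b at least 6.57-fold and Cyp3a25 at least 3.46-fold. The floor covers counting error in wild type only. Counting error in KO is not covered, and Cyp3a25 had only 9 KO counts and Cyp4a30b 18. Most of these values rest on a single KO library, as given above. The level of 0.5 FPKM was reached in KO only by 21 of the 59, in wild type only by 6 (Cyp11a1, Cyp2ab1, Cyp2c23, Cyp2c55, Sult4a1 and Ugt8a) and in both by 32. Over all 14589 genes that reached it, 9.25% did so in KO only and 2.43% in wild type only. Sult4a1 was at 0.54, 0.09 and 0.41 FPKM in wild type and 0.05, 0 and 0.06 in KO. Cyp2b10 and Ugt1a1 did not exceed 0.56 FPKM in any library.

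**Figure D4:**
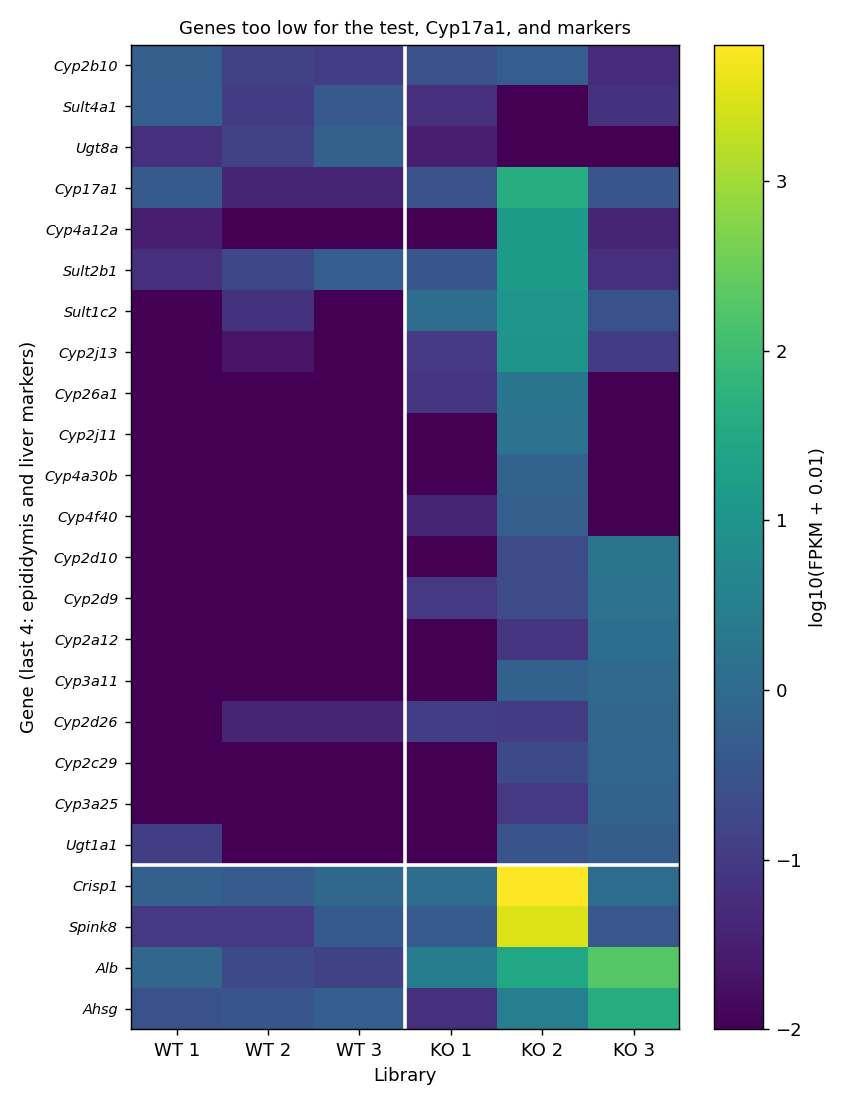
Log10(FPKM + 0.01) of 19 members that did not pass the count filter for the test, of Cyp17a1 and of 4 marker genes, with genes as rows and the 6 libraries as columns. Bright cells of the members gather in KO 2 with Crisp1 and Spink8, and in KO 3 with Alb and Ahsg.

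The 91 members below 0.5 FPKM included 34 with no count at all, among them 8 Sult2a and Sult3a genes, and the liver genes Cyp7a1 and Cyp1a2 with few counts. Nearest to the limit were Ugt1a1 (0.50 at its highest) and Cyp11a1 (0.520) inside, and Cyp2a5 and Cyp3a13 (both 0.480) outside.

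The enzymes that supply and surround these families were read from 8 lists. Of the 10 electron donors tested, 1 was called higher and none lower (median log2 fold change 0.13). This was Por, the reductase of microsomal P450s, at 99.1, 100 and 93.8 FPKM in wild type and 263, 205 and 254 in KO. Its libraries were far apart by genotype, and Por rose by 1.26 ± 0.17 SE on the log2 scale (edgeR adjusted p = 0.0307). Fdx1, the ferredoxin of mitochondrial P450s such as Cyp27a1, was at 15.2, 7.65 and 13.5 against 26.5, 32.4 and 43.3 (1.54, adjusted p = 0.0522).

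Of 22 other phase I enzymes tested, 1 was called higher and 2 lower (median 0.23). Ces1f, a carboxylesterase, rose from 20.6 ± 7.18 to 99.9 ± 47.2 FPKM (SD, n = 3; log2 fold change 2.30, edgeR adjusted p = 0.0481). Ephx1, the microsomal epoxide hydrolase that acts on P450 products, fell from 119 ± 17.7 to 47.5 ± 2.27 FPKM (-1.22, adjusted p = 0.0309). Maoa, the monoamine oxidase, fell from 30.2 ± 6.57 to 7.90 ± 1.95 FPKM (-1.89, adjusted p = 0.0266). Of 16 other conjugating enzymes and pumps, Inmt, an N-methyltransferase, was the only call, from 25.4 ± 7.75 to 124 ± 55.9 FPKM (2.32, adjusted p = 0.0473). Among 19 steroid and oxysterol enzymes the only call was Hsd3b7, a bile acid enzyme that acts after Cyp7b1, from 32.9 ± 1.66 to 61.1 ± 5.06 FPKM (0.92, adjusted p = 0.0385), and the list's median was 0.68.

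No gene was called by edgeR in the other 4 lists. Their counts at an unadjusted p under 0.05 stand beside 16.3% higher and 14.7% lower over all genes tested. Of 17 xenobiotic receptors and transcription factors, 7 were higher and 1 lower at an unadjusted p under 0.05 (median 0.44). Those of lowest p were Rxra, the partner of the xenobiotic nuclear receptors, at 24.6 ± 4.03 and 40.7 ± 8.65 FPKM (0.77, edgeR adjusted p = 0.0875), and Cebpa, a transcription factor of adipocytes and liver, at 138 ± 35.4 and 273 ± 85.4 (1.03, 0.0920). The dioxin receptor Ahr was at 2.82, 2.17 and 1.89 FPKM in wild type and 2.34, 5.64 and 4.34 in KO, with overlap (log2 fold change 0.90, edgeR adjusted p = 0.153). The 1 lower gene of this list was Ahrr, at a low 0.363 ± 0.0643 and 0.113 ± 0.0551 FPKM (-1.72, edgeR adjusted p = 0.118). Of 13 haem genes, 1 was higher and 2 lower at that p (median 0.09). The higher one was Alad, an early enzyme of haem synthesis, at 21.4 ± 9.41 and 78.7 ± 30 FPKM (1.94, adjusted p = 0.0633). The lower ones, of haem breakdown, were Blvra at 86.5 ± 13.4 and 34.1 ± 21.5 FPKM (-1.29, adjusted p = 0.0996) and Blvrb at 88.2 ± 21.0 and 48.3 ± 19.5 (-0.87, 0.130). The list of cosubstrate supply also held Gusb, Arsa, Arsb and Sumf1, which belong to the removal of sugar acid and sulphate groups. Of its 13 tested genes, 3 were higher (Papss1, Papss2 and Bpnt1) and 3 lower at that p (median -0.10). The lower ones were Slc35b2, Gusb (log2 fold change -2.14) and Arsb (-0.50). Papss2, which makes the sulphate donor of the sulfotransferases, was at 13.4 ± 1.97 and 24.1 ± 4.94 FPKM (0.94, adjusted p = 0.0754), and Slc35b2, which carries that donor into the Golgi, at 36.2 ± 5.30 and 23.7 ± 2.82 (-0.50, adjusted p = 0.0964). Of 15 retinoid genes, 3 were higher and 2 lower (median 0.01), with Dhrs3, a retinal reductase, at 194 ± 15.5 and 117 ± 30.6 FPKM (-0.75, adjusted p = 0.0927), and Rarg, a retinoic acid receptor, at 10.1 ± 0.137 and 17.7 ± 6.55 (0.81, 0.0920).

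**Figure D5:**
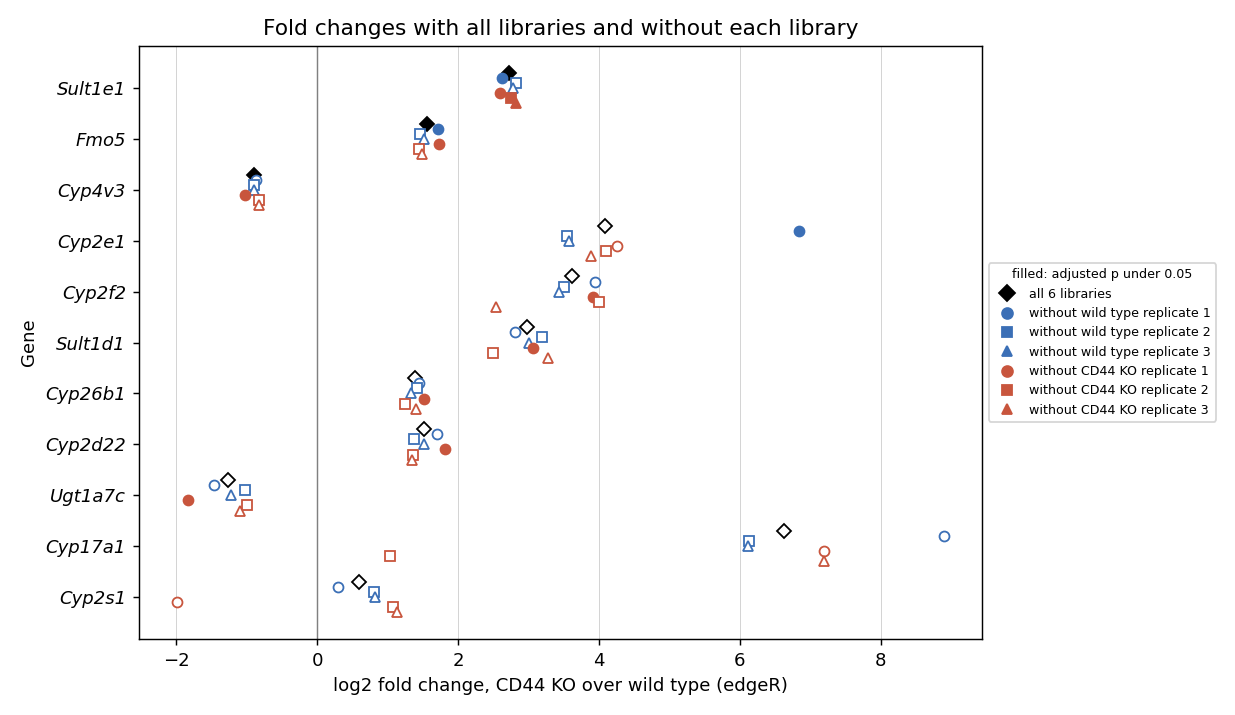
Log2 fold change of 11 members with all 6 libraries (diamond) and with each library left out, wild type in blue and KO in red, filled where the adjusted p was under 0.05. Sult1e1 stays between 2.60 and 2.82, Cyp17a1 drops to 1.03 without KO replicate 2, and Cyp2s1 turns negative without KO replicate 1.

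The number of calls depended on single libraries. Without KO replicate 2, edgeR called 1 member higher and none lower, and the same without KO replicate 3, in both fits Sult1e1. Over all genes, these fits called 64 higher and 36 lower of 13998 tested, and 5 and 2 of 14186. Without KO replicate 1, the KO library with macrophage markers in the wild type range, 7 were called higher (Cyp26b1, Cyp2d22, Cyp2f2, Cyp3a11, Fmo5, Sult1d1 and Sult1e1) and 4 lower (Cyp11a1, Cyp2c55, Cyp4v3 and Ugt1a7c). The same fit called 1007 higher and 1363 lower of all 14119 genes tested. The KO libraries left in it, replicates 2 and 3, were those with the most liver marker RNA besides Trf, and replicate 2 held the epididymis markers. Cyp3a11 had 26 and 37 counts in them and 0 in KO replicate 1 and in each wild type library. The part of liver or epididymal RNA in these calls was not tested. Without wild type replicate 1, 3 were called higher (Cyp2e1, Fmo5 and Sult1e1) and none lower, and without wild type replicate 2 or 3 no member was called. Over all genes, the fit without wild type replicate 1 called 248 higher and 62 lower of 14245 tested. The fit without wild type replicate 2 called 2 higher and 7 lower of 14226, and that without replicate 3 called 0 and 0 of 14218.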

How the data were processed

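Poly(A) RNA of epididymal fat was sequenced in 6 libraries. The authors deposited expected counts (estimated counts per gene, not scaled) and FPKM (scaled for length and library size) in 1 table. Per the submitters' processing notes the tools were RSEM, DESeq2, HISAT2 and StringTie 1.3.1, with no role stated. Strandedness, genome build and annotation were not given in the sources used here, and reads of overlapping antisense genes cannot be told apart. Coordinates come from GENCODE M21 (GRCm38), matched by Ensembl identifier for 22267 of 22322 genes. Promoters of 46 members were taken from RefSeq (GRCm38.p6) by symbol, the most upstream one where a member had several.

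Expected counts were rounded and fitted with edgeR 4.0.16 in R 4.3.3 (filterByExpr, TMM, robust quasi-likelihood F-test, Benjamini-Hochberg adjustment over 13829 genes, calls under 0.05). SE is the absolute log2 fold change over the square root of F, and 95% intervals use the fit's moderated degrees of freedom. CPM are TMM-scaled. Overlap between genotypes was counted in CPM, and where given for single genes also holds in FPKM unless stated. The scripts were tested on simulated data. Alternatives were DESeq2 1.42.0, limma 3.58.1 on log2(FPKM + 0.1) and log2(FPKM + 1), other filters and scalings, a replicate block, and leaving out each library. Members and gene lists were chosen with earlier results of these data known.

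Named were all called members, the 12 of highest mean FPKM, the 3 of lowest p per family, those with no count in 1 genotype, and 21 chosen by name. Others are given by range, and 1 item is not reported here. Of the 8 pathway lists, called genes or else those of lowest p are named, and the 10 cell type marker lists give sums. Floors of 3 counts cover only counting error in the genotype without counts, and PCR copies were not told apart by molecular identifiers.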

Additional observations from a re-analysis of the deposited data

How the results depend on the processing

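Of the members, edgeR called 2 higher and 1 lower. DESeq2 called 12 and 7, and 1478 and 1441 of all 18497 genes it was run on. A filter on a mean of 1 CPM, no filter and upper-quartile scaling each kept 2 higher but 0 lower. The fit with a replicate block called 0 higher and 0 lower, in the members, the other lists and all 13829 genes tested alike. Same-numbered libraries had correlations of deviations from the genotype means of -0.321, -0.218 and -0.0176, and no library correlated best with its own number. These values showed no pairing by number. With 3 libraries per genotype, some of them unlike the rest, they cannot exclude one. Leaving out 1 library gave 0 to 7 members higher and 0 to 4 lower, and 0 to 16 higher and 0 to 16 lower in the 8 other lists, where the main counts were 4 and 2. Over all genes tested, these fits called 0 to 1007 higher and 0 to 1363 lower. In those lists DESeq2 called 24 higher and 18 lower, and the 1 CPM filter and no filter 2 higher each. RLE scaling, both limma fits and the limit on mean FPKM of 0.5 left the members' counts at 2 and 1. In these fits the cause of the differences was not tested. Log2 fold changes of 7 uncalled members turned sign. Cyp2c70 was -0.68 with the replicate block, -0.61 and -0.06 with limma (0.1 and 1 added), -1.91 without KO replicate 3 and -0.03 without wild type replicate 2. Cyp2s1 was -0.88, -0.52 and -0.14 in the first 3 of these and -1.99 without KO replicate 1. Cyp2j9 was -0.16 without KO replicate 3, and -0.22 and -0.06 without wild type replicates 2 and 3. Cyp4f13 was 0.07 with upper-quartile scaling, 0.10 without KO replicate 1, and 0.06 and 0.02 without wild type replicates 2 and 3. Ugt1a6b was -0.02 and -0.06 without KO replicates 1 and 3, and -0.25 and -0.12 without wild type replicates 2 and 3. Without KO replicate 2, Cyp39a1 was -0.20 and Cyp7b1 -0.73. Over the 6 fits without 1 library, the highest values were 0.74 for Cyp2c70, 1.13 for Cyp2s1, 0.45 for Cyp2j9, 0.64 for Ugt1a6b, 0.68 for Cyp39a1 and 0.72 for Cyp7b1, and the lowest for Cyp4f13 was -0.09. Fitted without the filter, the 20 members outside the main test had SE of 1.13 to 3.43 and adjusted p of 0.109 to 0.960. Low counts limit some of them, and in others, such as Cyp4a12a with 635 of 637 counts in KO replicate 2, the libraries of a genotype differ.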
